A study of Rattus norvegicus with 6 samples.

Results

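The histone genes of rat bone marrow mesenchymal stem cells (BMSCs) were taken from an expression table as all rows whose gene symbol begins, in upper or lower case, with Hist1 to Hist4, H1f, H2af or H3f. The rule found 45 genes among 21797 symbols, in 49 of 22062 rows. The 32 genes with a Hist symbol were taken as replication-dependent genes, and the 13 genes with an H1f, H2af or H3f symbol as variant genes. The rule used names alone and no measured value. One group of 3 libraries came from BMSCs given ginsenoside Rb1, a saponin of ginseng root, at 20 µM for 24 h. The other group of 3 libraries received DMSO, the solvent. Dose and duration come from the study's methods and the agents from the sample labels. The animals were 4-week-old Sprague-Dawley rats, called female in the labels and male in the study's methods, and no transgene or deletion was involved. No source says that replicate libraries were separate cultures, so p-values reflect only how far these libraries vary, and that variation may be technical.

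Histones are the proteins on which DNA is wound into nucleosomes. H2A, H2B, H3 and H4 form the core of the nucleosome and H1 binds the linker DNA between cores. Replication-dependent histone genes lie in clusters and are transcribed mainly in S phase, when new DNA must be packed. Their mRNAs end in a conserved stem-loop in place of a poly(A) tail and are degraded when DNA synthesis stops. Variant histone genes, such as those of H3.3, H2A.Z and macroH2A, lie outside the clusters, usually give polyadenylated mRNAs and are transcribed through the cell cycle and in resting cells. The libraries were made from total RNA after removal of rRNA, with a stranded kit, so that capture of a poly(A) tail was not a step.

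Promoter sequences are shown for 3 members whose values recur here, a linker histone gene, a core H2B gene and an H3.3 gene. RefSeq (assembly GRCr8) gave a window of 300 bases for 38 members, 27 replication-dependent and 11 variant, from 250 bases before to 50 bases after the start of the gene. Capitals mark the CCAAT box (CCAAT or, on the other strand, ATTGG), the TATA box letters TATAAA (or TTTATA) and the histone octamer ATTTGCAT (or ATGCAAAT), the binding motif of the factor Oct-1 that is best known from H2B promoters. Each sequence runs 5′ to 3′ on the strand of its gene, which is the minus strand for all 3, at chr17:41820404-41820703 for Hist1h1c, chr17:47181891-47182190 for Hist1h2bk and chr10:101757587-101757886 for H3f3b.
Hist1h1c: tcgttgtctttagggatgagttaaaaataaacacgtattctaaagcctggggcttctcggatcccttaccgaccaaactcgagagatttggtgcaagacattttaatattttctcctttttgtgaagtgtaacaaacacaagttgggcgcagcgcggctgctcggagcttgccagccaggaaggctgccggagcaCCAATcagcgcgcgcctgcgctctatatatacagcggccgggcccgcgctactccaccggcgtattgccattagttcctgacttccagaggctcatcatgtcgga
Hist1h2bk: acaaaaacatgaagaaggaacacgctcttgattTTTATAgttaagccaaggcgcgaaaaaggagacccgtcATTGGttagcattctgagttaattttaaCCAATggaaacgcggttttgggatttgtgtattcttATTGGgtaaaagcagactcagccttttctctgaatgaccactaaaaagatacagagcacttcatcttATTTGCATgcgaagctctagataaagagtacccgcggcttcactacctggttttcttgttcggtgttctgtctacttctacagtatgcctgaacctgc
H3f3b: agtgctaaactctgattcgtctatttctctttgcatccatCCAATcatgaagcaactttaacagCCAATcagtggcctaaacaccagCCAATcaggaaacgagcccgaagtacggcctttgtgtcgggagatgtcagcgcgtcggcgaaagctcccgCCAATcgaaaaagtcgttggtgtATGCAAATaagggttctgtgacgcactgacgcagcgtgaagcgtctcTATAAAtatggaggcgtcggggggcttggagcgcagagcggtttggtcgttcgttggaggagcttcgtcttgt
The H2B gene Hist1h2bk and the H3.3 gene H3f3b hold the letters of all 3 motifs, and Hist1h1c holds 1 CCAAT box. In Hist1h2bk the TATA letters are TTTATA, on the other strand and far from the gene start. Hist1h1c holds the letters tatatata near the gene start, which the search for TATAAA does not mark.

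Motifs were searched on both strands of all 33469 windows of that length, and no searched motif contains another. CCAAT was present in 24 of 27 replication-dependent windows (88.9%), in 7 of 11 variant windows (63.6%) and in 37.5% of all windows. At least 2 copies of it stood in 21 replication-dependent and 6 variant windows, and in 11.2% of all windows. TATAAA was present in 15 replication-dependent windows (55.6%), in 3 variant windows (27.3%, H2afx, H2afz and H3f3b) and in 14.2% of all. The octamer was present in 10 replication-dependent windows (37.0%), in 1 variant window, that of H3f3b (9.1%), and in 1.8% of all. The windows of both macroH2A genes and of H1fx held none of the 3 motifs. Windows of divergent neighbours are not independent, as Hist2h2ac and Hist2h2be share 275 bases and Hist1h2aa and Hist1h2ba share 261. RefSeq places 4 of the replication-dependent windows on another chromosome or strand than the row in the table (Hist1h2ao, Hist1h4b, Hist1h4m and Hist2h3c2), so these may not belong to the rows measured. Without them CCAAT was present in all 23 windows of that class, TATAAA in 15 (65.2%) and the octamer in 10 (43.5%). This check compared chromosome and strand only. The rows of Hist1h2bk, Hist1h2bh and Hist1h2bl start at 44527421, 44519860 and 44748482 in the table, and their windows at 47181891, 41869292 and 41999019. The windows of Hist1h2bh and Hist1h2bl thus lie far from that of Hist1h2bk although the rows lie close together. They may not belong to the rows measured either. A match is a description of letters only. H3f3a, H3f3c and Hist1h4a had no window by gene number, and the window that RefSeq names Hist1h2bq belongs by gene number to the row listed as Hist1h2bh, so it was not used for Hist1h2bq.

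The libraries held 8197157 to 14177079 fragments, recovered from the deposited scaled counts. Rb1 replicate 1 was the smallest, and its mean correlation with its own group was 0.972, against 0.980 to 0.984 for the other 5 libraries. The share of fragments on mitochondrial genes was 9.39% to 11.53% with Rb1 and 5.58% to 8.65% with DMSO. All 10 mesenchymal stromal markers found in the table had a mean of at least 1 FPKM, and their summed level was 3307 to 5428 FPKM with Rb1 and 5640 to 6419 FPKM with DMSO. FPKM is the number of fragments scaled for transcript length and for the mapped fragments of the library. Macrophage and other leukocyte markers were also present, 8 of 9 with a mean of at least 1 FPKM, and their sum was 3784 to 4157 FPKM with Rb1 and 3378 to 3409 FPKM with DMSO. Endothelial markers summed to 21.3 to 23.3 FPKM with Rb1 and to 32.1 to 49.6 FPKM with DMSO. All 6 germ cell markers and 6 of 8 lymphoid markers were at 0 in every library. Single genes set the first 2 sums, Col1a1 with 72.1% of the stromal one and Lyz2 with 86.5% of the leukocyte one. Without Col1a1 the stromal sum was 1331 to 1598 FPKM with Rb1 and 1422 to 1513 FPKM with DMSO, with overlap. Of the 10 stromal markers, 9 had a lower mean with Rb1. The exception was Itgb1, higher in every Rb1 library (561 to 601 against 427 to 457 FPKM). Without Lyz2 the leukocyte sum was lower in every Rb1 library, at 428 to 488 FPKM against 497 to 548 FPKM. The part of these shares and sums in the values below was not tested. In bulk RNA, fewer cells of a type and less RNA per cell cannot be told apart.

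Histone RNA was concentrated in a few genes. Hist1h2bq, Hist1h1c and Hist1h2ao held 98.1% of the 30432 fragments assigned to replication-dependent genes, and the other 29 genes of this class held 565 fragments over all 6 libraries. The variant class held 60267 fragments, of which 74.2% lay on H3f3a, H3f3b and H3f3c. A total of 15 replication-dependent and 9 variant genes had at least 1 FPKM in at least 3 of the 6 libraries and were tested. Of these 15, 12 had fewer than 20 fragments in every library and 4 had fewer than 10. The filter keeps a gene that is high in 1 group alone, so the genes that passed are not a sample of the whole list.

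**Figure D1:**
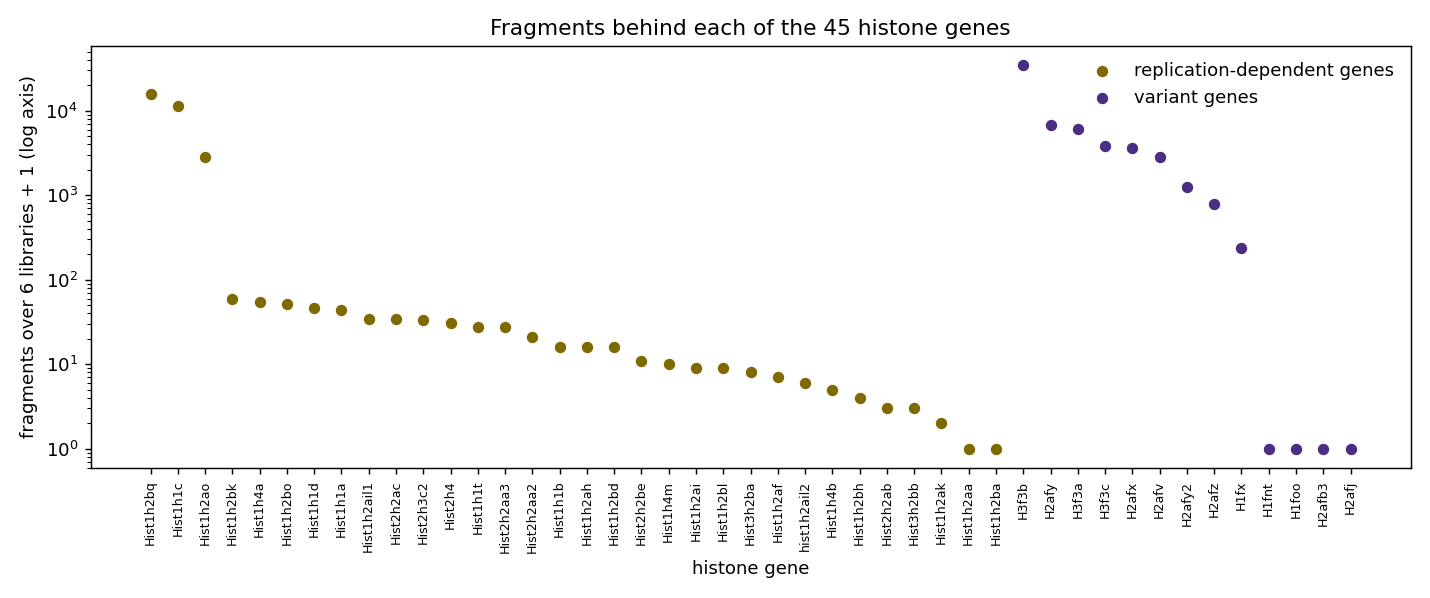
Fragments summed over the 6 libraries plus 1 (log axis) for each of the 45 histone genes, replication-dependent genes to the left and variant genes to the right. Of the replication-dependent genes 3 lie far above the others, and 9 variant genes hold 234 fragments or more while the other 4 are at 0.

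The 21 genes that were not tested are listed at low levels or at 0. Hist1h2aa and Hist1h2ba, the H2A and H2B genes known from testis, had 0 fragments in every library. Hist1h1t, the testis linker histone H1t, had 27 fragments in all, the most of any untested gene. Another 14 replication-dependent genes held 1 fragment (Hist1h2ak) or more, and no untested gene exceeded 8 fragments in 1 library. Hist1h1b, the linker histone H1.5, was among them, as were 6 genes named as H2A (Hist1h2af, Hist1h2ah, Hist1h2ai, hist1h2ail2, Hist1h2ak and Hist2h2ab), 5 named as H2B (Hist1h2bh, Hist1h2bl, Hist2h2be, Hist3h2ba and Hist3h2bb) and the H4 genes Hist1h4b and Hist1h4m. Of the variant genes, H1fnt, H1foo, H2afb3 and H2afj were at 0 throughout. H1fnt and H1foo are linker histones of spermatids and oocytes and H2afb3 is a short H2A known from testis, while H2afj encodes an H2A variant known from other tissues. Of the untested genes above 0, Hist1h1b was at 0, 0.3 and 0.28 FPKM with Rb1 and at 0.39, 0.7 and 0.78 FPKM with DMSO, and Hist1h2ah was at 0.48, 0.69 and 0.32 FPKM with Rb1 and at 1.37, 0.79 and 2.15 FPKM with DMSO. In these 2 genes every Rb1 library lay below every DMSO library, from 0 to 6 fragments a library. They were named for this out of 15 untested replication-dependent genes above 0. Of all genes tested 20.3% were lower without overlap, and the share among genes under the filter was not computed. A count of 0 still allows 3 fragments in a library, for counting error only.

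Gene models and names limit these values. By the table's own coordinates, whose genome build is not named, 26 of 35 replication-dependent rows lie on chromosome 17 between 43422454 and 44841382, 6 on chromosome 2, 2 on chromosome 10 and 1 on chromosome 4. Of these rows 30 span at most 1000 bases, and 26 of the 30 have a length that is a multiple of 3, as a coding sequence without untranslated ends would. Of the 3 abundant genes Hist1h1c is such a row, of 639 bases, while Hist1h2ao is listed over 4444 bases and Hist1h2bq over 9901. The scaled count per FPKM, which rises with the length of the transcript model, was 5.58, 13.59 and 9.37 for these genes in that order. Class was assigned by symbol alone. Whether the fragments of Hist1h2ao and Hist1h2bq come from stem-loop mRNAs was not tested. Rows for Hist1h1b, Hist1h2ail1 and Hist1h2bo share 1 locus entry of 37373 bases. Coding sequences of a family are nearly identical between clustered copies, and no source used here says how fragments were split between them. A further 16 rows that the rule does not name are described as core or linker histones, with 333 fragments in all, of which 125 lie on LOC684828, described as H1.2-like.

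The family that a symbol names is uncertain for 2 members. Hist1h2ail1 is named as H2A, but its short rows span 411 bases, the length of the H3 gene Hist2h3c2, and 31 of the 33 bases of coding sequence in its promoter window equal those of Hist2h3c2, against 14 of 33 for the H2A gene Hist1h2af. Hist1h2ao is named as H2A. RefSeq gives a window for its gene number that ends in 28 coding bases. Of these, 23 equal those of the H4 gene Hist1h4b and 17 those of Hist1h2af. The window of the H2A gene Hist1h2ai holds only 18 coding bases, of which 16 are equal. Those 18 bases encode the same residues in Hist1h2ai and Hist1h4b, so they cannot tell the families apart. Past them the window of Hist1h2ao encodes the residues of Hist1h4b and not those of Hist1h2af. RefSeq places the window of Hist1h2ao on the other strand than the row measured, and Hist1h4b, Hist2h3c2, Hist1h4m, Hist2h4 and the second row of H2afz on another chromosome than the table does, 5 of 44 member rows with a RefSeq entry. Sums by family are therefore given by the names in the table.

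Hist1h1c (ENSRNOG00000054978), which encodes the linker histone H1.2, had the highest mean level of the replication-dependent genes. Its level was 272, 361 and 375 FPKM in Rb1 replicates 1 to 3 and 387, 309 and 304 FPKM in DMSO replicates 1 to 3. The lowest value was that of Rb1 replicate 1 and the highest that of DMSO replicate 1, and the groups overlapped. The mean was 336 ± 55.8 FPKM with Rb1 and 333 ± 46.0 FPKM with DMSO (SD, n = 3 each). The log2 difference, Rb1 minus DMSO on the log2(FPKM + 1) scale, was 0.01 with a standard error of 0.17 (limma, Benjamini-Hochberg adjusted p = 0.988).

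Hist1h2bq (ENSRNOG00000021198), a core H2B gene by its symbol, was at 331, 288 and 276 FPKM with Rb1 and at 287, 264 and 254 FPKM with DMSO. Rb1 replicate 1 was the highest library, and Rb1 replicate 3 lay below DMSO replicate 1, so the groups overlapped (log2 difference 0.15, standard error 0.12, limma adjusted p = 0.482). Hist1h2ao (ENSRNOG00000054017) was at 50.2, 31.4 and 34.9 FPKM with Rb1 and at 29.6, 33.1 and 32.2 FPKM with DMSO. Rb1 replicate 1 stood above the other 5 libraries, which spanned 29.6 to 34.9 FPKM (log2 difference 0.26, standard error 0.18, limma adjusted p = 0.412).

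Hist1h4a (ENSRNOG00000050933, 312 bases), a core H4 gene, was the single gene among the 15 tested of this class whose groups did not overlap. It was at 7.25, 1.08 and 1.04 FPKM with Rb1, from 10, 2 and 2 fragments, and at 8.24, 9.2 and 8.0 FPKM with DMSO, from 11, 15 and 14 fragments. The separation came from Rb1 replicates 2 and 3, and Rb1 replicate 1 lay just below the DMSO libraries. The log2 difference was -1.53 with a standard error of 0.50, which did not pass the adjusted threshold (limma, adjusted p = 0.153). Without Rb1 replicate 1 the difference was -2.20 and the adjusted p was 0.005, which would be past the threshold, and over all settings tried the adjusted p ranged from 0.005 to 0.352. The other H4 gene tested, Hist2h4, was at 0.72, 7.56 and 0.52 FPKM with Rb1 and at 6.74, 1.23 and 1.71 FPKM with DMSO, with 1 high library in each group and a log2 difference of -0.35 (standard error 0.73). Over the 4 H4 genes the sum was 9.42, 8.97 and 2.08 FPKM with Rb1 and 17.1, 12.9 and 10.3 FPKM with DMSO, from 4 to 24 fragments a library. In FPKM the groups of this sum do not overlap, and their ratio of means was 0.509. As fragments per 1000000, scaled to library size, it was 1.6, 1.3 and 0.3 with Rb1 and 2.4, 1.9 and 1.5 with DMSO. On that scale Rb1 replicate 1 lay above DMSO replicate 3, so the groups overlapped, with a ratio of 0.557. With Hist1h2ao added, whose family is uncertain, the sum was 59.6, 40.4 and 36.9 FPKM with Rb1 and 46.7, 46.0 and 42.5 FPKM with DMSO, with overlap and a ratio of 1.01. The ratio was 1.01 for the H1 genes, 1.08 for H2A, 1.11 for H2B and 0.925 for the single H3 gene, each by name.

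The other replication-dependent genes tested lay at mean levels of 4.01 FPKM or less. Hist1h2bk, an H2B gene whose promoter holds the octamer and 3 CCAAT boxes, was at 5.05, 3.99 and 4.78 FPKM with Rb1 and at 3.41, 4.15 and 2.66 FPKM with DMSO. These values rest on 7 to 14 fragments a library and overlap between groups, with a log2 difference of 0.36 and a standard error of 0.16 (limma adjusted p = 0.230). The H2A gene Hist2h2ac was at 2.05, 0 and 0 FPKM with Rb1 and at 5.44, 0 and 6.94 FPKM with DMSO, so that 3 of the 6 libraries held no fragment. Its log2 difference of -1.36 had a standard error of 0.81 (limma adjusted p = 0.344). Hist1h2bo, an H2B gene, was at 0.96, 0.69 and 1.41 FPKM with Rb1 and at 0.84, 2.32 and 3.38 FPKM with DMSO. The highest 2 values were those of DMSO replicates 2 and 3, and DMSO replicate 1 lay within the Rb1 range (log2 difference -0.58, standard error 0.31, limma adjusted p = 0.30).

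Of the remaining 7 low genes, 4 had a positive and 3 a negative log2 difference. The H2A genes Hist2h2aa2 and Hist2h2aa3 differed by 0.37 and 0.34 on the log2 scale, with standard errors of 0.40 and 0.35. The linker histone gene Hist1h1d differed by 0.29 and the H3 gene Hist2h3c2 by 0.14. Hist1h1a, which encodes H1.1, differed by -0.01, the H2B gene Hist1h2bd by -0.09 and Hist1h2ail1 by -0.14. For Hist2h3c2 and Hist1h2ail1 the mean FPKM lay the other way, at 1.84 with Rb1 and 1.99 with DMSO and at 1.96 with Rb1 and 1.71 with DMSO, so that no direction is given for them. In all 7 the groups overlapped, no library held more than 18 fragments, and the adjusted p-values ranged from 0.491 to 0.99 (limma, Benjamini-Hochberg).

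**Figure D2:**
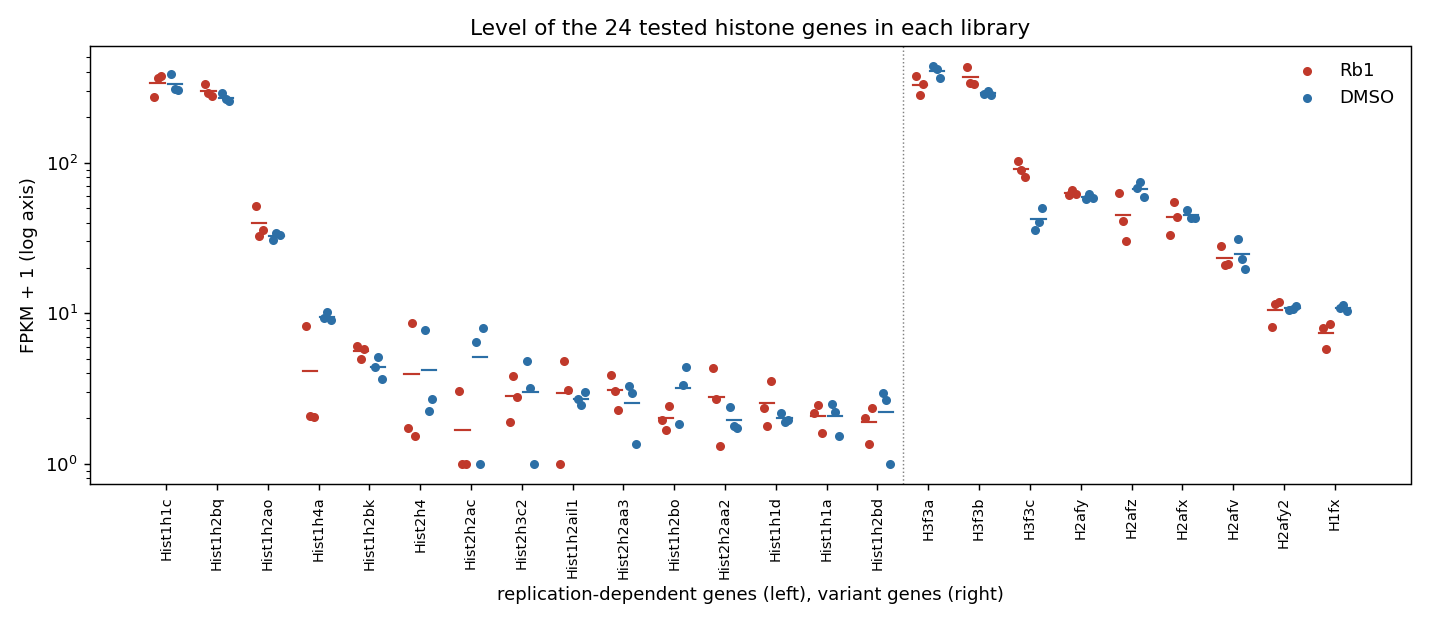
FPKM plus 1 (log axis) of the 24 tested histone genes in the 3 Rb1 and 3 DMSO libraries, each point a library and each short line a group mean, in order of mean level within the replication-dependent (left) and the variant (right) genes. The DMSO points of Hist1h4a and H1fx lie above all Rb1 points, and the Rb1 points of H3f3b and H3f3c lie above all DMSO points.

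As a class the replication-dependent genes showed no call. None of the 15 had an adjusted p under 0.05, where 2 of the 10781 genes tested did (0.0186%). At an unadjusted p under 0.05 there was none higher and 1 lower with Rb1, where 8.27% of all genes tested were higher and 14.6% lower. Groups did not overlap for none higher and 1 lower, against 11.9% higher and 20.3% lower of all genes tested. By value 8 were higher and 7 lower, and the median log2 difference was 0.01, beside -0.07 over all genes tested. For the 12 with a mean under 10 FPKM the median was -0.05, beside -0.10 for the 5152 genes tested with a mean under 10 FPKM. The spread of the 15 differences ran from -1.53 to 0.37.

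The summed level of the 32 genes was 686, 711 and 708 FPKM with Rb1 and 748, 642 and 627 FPKM with DMSO. The groups overlapped, with means of 702 ± 13.9 FPKM and 672 ± 65.9 FPKM (SD, n = 3 each) and a ratio of 1.04. That sum is set by Hist1h1c, Hist1h2bq and Hist1h2ao, which made up 95.1% of it. Without these 3, which were left out after their values were seen, the other 29 genes summed to 32.6, 30.8 and 22.1 FPKM with Rb1 and to 44.1, 36.1 and 35.6 FPKM with DMSO, from 72 to 108 fragments a library. In FPKM the Rb1 values of this remainder all lay below the DMSO values, with a ratio of 0.738. As fragments per 1000000, scaled to library size, it was 8.8, 7.6 and 6.3 with Rb1 and 9.8, 9.3 and 8.8 with DMSO. On that scale Rb1 replicate 1 and DMSO replicate 3 were both at 8.8, so the groups were not separate, with a ratio of 0.813. Hist1h4a and Hist2h2ac carried most of the difference in FPKM. Without them, a choice also made after seeing the values, the other 27 genes summed to 23.4, 29.7 and 21.0 FPKM with Rb1. With DMSO these 27 genes summed to 30.5, 26.9 and 20.7 FPKM, with overlap and a ratio of 0.95.

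**Figure D3:**
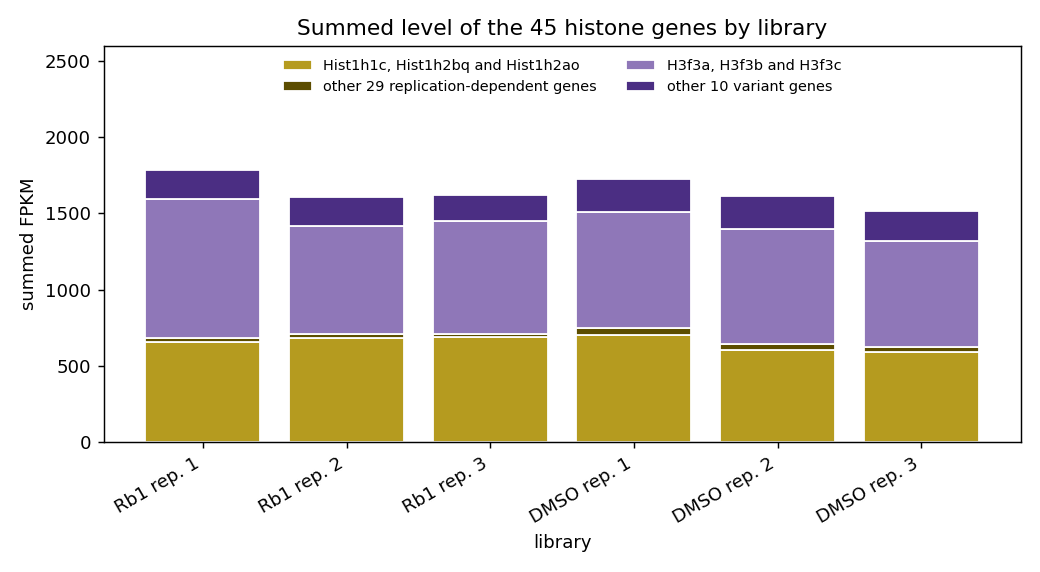
Stacked bars of summed FPKM in each library (axis from 0) for Hist1h1c, Hist1h2bq and Hist1h2ao, the other 29 replication-dependent genes, the 3 H3.3 genes and the other 10 variant genes. The whole sum ran from 1515 FPKM in DMSO replicate 3 to 1787 FPKM in Rb1 replicate 1, and the other 29 replication-dependent genes are a thin band of 22.1 to 44.1 FPKM.

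By value the 3 H3.3 genes did not differ in 1 direction. H3.3 is the H3 variant that is placed in chromatin outside S phase, at active genes by the chaperone HIRA and at telomeres and repeats by ATRX with DAXX, and H3f3a and H3f3b encode the same protein. H3f3c (ENSRNOG00000032401, 995 bases on chromosome 7 in the table) is listed as a pseudogene by RefSeq in the assembly GRCr8. It was at 101, 88.0 and 78.9 FPKM with Rb1 and at 34.9, 39.4 and 49.2 FPKM with DMSO, from 741 to 968 and from 304 to 526 fragments. Every Rb1 library lay above every DMSO library, and the means of 89.2 ± 11.1 FPKM and 41.2 ± 7.27 FPKM (SD, n = 3 each) differed by a ratio of 2.17. The log2 difference was 1.10 with a standard error of 0.16. Ranked by p, this gene was number 14 of the 10781 genes tested and the first of the histone genes, but it did not pass the adjusted threshold (limma, adjusted p = 0.117). Over all settings tried the log2 difference stayed between 0.996 and 1.236 and the adjusted p between 0.0889 and 0.346.

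H3f3b (ENSRNOG00000006532), the H3.3B gene whose promoter is printed above, was at 431, 338 and 332 FPKM with Rb1 and at 286, 298 and 280 FPKM with DMSO. All Rb1 libraries lay above all DMSO libraries, and the Rb1 mean was raised most by replicate 1 (log2 difference 0.34, standard error 0.14, limma adjusted p = 0.198). H3f3a (ENSRNOG00000003220), the H3.3A gene, was at 375, 281 and 330 FPKM with Rb1 and at 438, 415 and 364 FPKM with DMSO. Here Rb1 replicate 1 lay above DMSO replicate 3, so the groups overlapped, and the log2 difference was -0.31 with a standard error of 0.14 (limma adjusted p = 0.252). The 3 genes together gave 907, 707 and 741 FPKM with Rb1 and 759, 753 and 693 FPKM with DMSO. This sum overlapped between groups, with a ratio of means of 1.07. As fragments scaled to library size, without transcript length, it was 882, 679 and 665 fragments per 1000000 with Rb1 and 578, 612 and 571 with DMSO, which do not overlap, with a ratio of 1.26.

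Their shares of the sum did separate the groups, as a description of the same values. H3f3a made up 41.4%, 39.8% and 44.5% of the H3.3 sum with Rb1 and 57.8%, 55.2% and 52.5% with DMSO. H3f3b made up 47.5%, 47.8% and 44.8% with Rb1 and 37.6%, 39.6% and 40.4% with DMSO. H3f3c made up 11.1%, 12.5% and 10.7% with Rb1 and 4.6%, 5.2% and 7.1% with DMSO. These shares depend on the transcript models, as 1 FPKM stood for 2.83 scaled counts in H3f3a, 17.94 in H3f3b and 9.95 in H3f3c. In fragments H3f3a held 841 of 7231, 888 of 8563 and 1112 of 9426 with Rb1. With DMSO it held 1041 of 5872, 1142 of 6598 and 1101 of 7047. The FPKM shares are therefore not shares of fragments. A copy such as H3f3c and its parent can share reads, and whether fragments were divided between the 3 rows in the same way in every library was not tested.

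**Figure D4:**
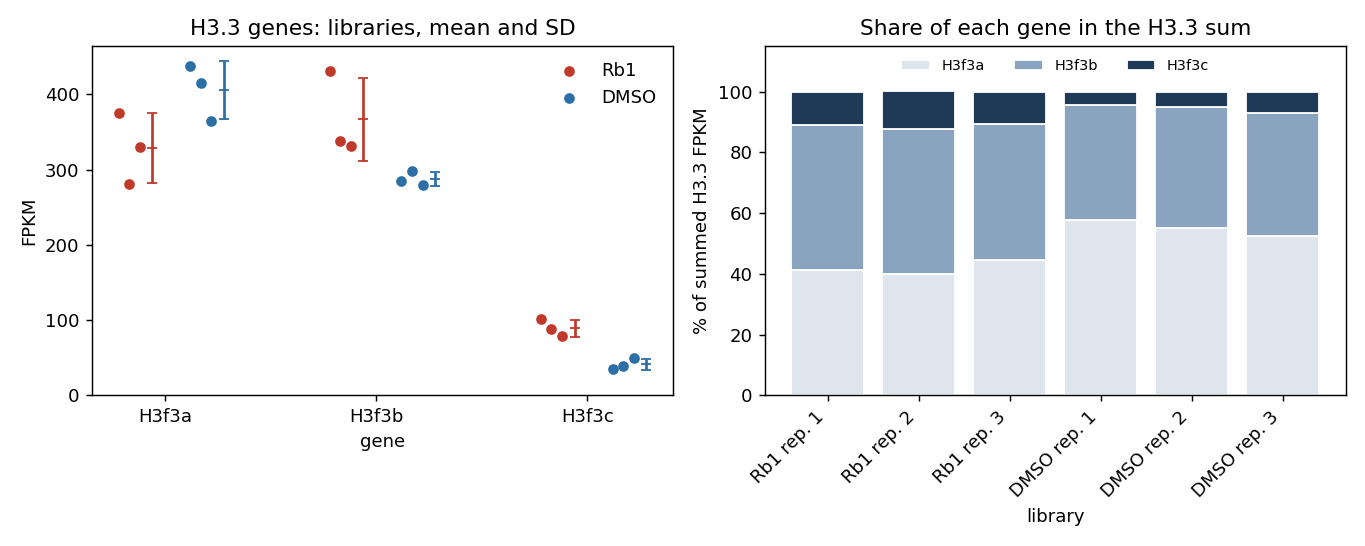
Left, FPKM of H3f3a, H3f3b and H3f3c in the 3 Rb1 and 3 DMSO libraries (points), with the mean and SD of each group beside them, and right, the share in % of each gene in their summed FPKM by library. H3f3c lies at 78.9 to 101 FPKM with Rb1 and at 34.9 to 49.2 FPKM with DMSO, and the share of H3f3a is at most 44.5% in the Rb1 libraries and at least 52.5% in the DMSO libraries.

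Among the H2A variant genes, the H2A.Z gene H2afz gave the lowest difference. H2A.Z marks the nucleosomes beside start sites and is encoded by H2afz (H2A.Z.1) and H2afv (H2A.Z.2). H2afz (ENSRNOG00000010306) was at 62.3, 40.0 and 28.9 FPKM with Rb1 and at 66.6, 73.7 and 58.0 FPKM with DMSO, from 86 to 180 fragments a library. Rb1 replicate 1 lay within the DMSO range while Rb1 replicates 2 and 3 lay below it (log2 difference -0.65, standard error 0.26, limma adjusted p = 0.202). Without Rb1 replicate 3 the difference was -0.39, and without Rb1 replicate 1 it was -0.93. A second row of H2afz, of 372 bases on chromosome 6, was at 0 throughout. H2afv was at 26.8, 19.99 and 20.28 FPKM with Rb1 and at 30.3, 21.9 and 18.5 FPKM with DMSO, with overlap and a log2 difference of -0.06 (standard error 0.20).

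H2afx encodes H2A.X, whose phosphorylation marks DNA breaks. It was at 31.8, 53.5 and 42.6 FPKM with Rb1 and at 47.6, 42.1 and 41.8 FPKM with DMSO, and the Rb1 libraries enclosed the DMSO range (log2 difference -0.07, standard error 0.19). H2afy, which encodes macroH2A1, a variant with a large extra domain found in repressed chromatin, was among the least variable members, at 60.0, 64.8 and 61.2 FPKM with Rb1 and at 56.5, 61.0 and 57.5 FPKM with DMSO. The groups overlapped, and the log2 difference was 0.09 with a standard error of 0.10. H2afy2, which encodes macroH2A2, was at 7.11, 10.4 and 10.8 FPKM with Rb1 and at 9.58, 9.67 and 10.2 FPKM with DMSO, with Rb1 replicate 1 the lowest (log2 difference -0.07, standard error 0.16). The adjusted p-values of H2afv, H2afx, H2afy and H2afy2 ranged from 0.640 to 0.880 (limma).

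H1fx (ENSRNOG00000027722), the single linker histone variant above 0, encodes H1x. It was at 7.01, 4.8 and 7.45 FPKM with Rb1 and at 9.79, 10.3 and 9.37 FPKM with DMSO, from 26 to 49 fragments. All Rb1 libraries lay below all DMSO libraries, with means of 6.42 ± 1.42 FPKM and 9.80 ± 0.443 FPKM (SD, n = 3 each). The log2 difference was -0.56 with a standard error of 0.16, which did not pass the adjusted threshold (limma, adjusted p = 0.133).

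None of the 9 variant genes tested had an adjusted p under 0.05. At an unadjusted p under 0.05, 2 were higher (H3f3b and H3f3c) and 2 lower (H1fx and H2afz), where 8.27% of all genes tested were higher and 14.6% lower. Groups did not overlap for H3f3b and H3f3c (higher) and H1fx (lower), against 11.9% higher and 20.3% lower of all genes tested. By value 3 were higher and 6 lower. Their median difference of -0.07 on the log2 scale was the same to this precision as that of all genes tested. The 13 variant genes summed to 1102, 900 and 912 FPKM with Rb1 and to 979, 971 and 888 FPKM with DMSO, with overlap and a ratio of 1.03. Variant genes made up 55.9% to 61.6% of all histone FPKM, and the highest and lowest shares were both those of Rb1 libraries. Over both classes, 5 of the 24 genes tested had an unadjusted p under 0.05, 2 higher and 3 lower, beside the same 8.27% and 14.6% of all genes tested.

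**Figure D5:**
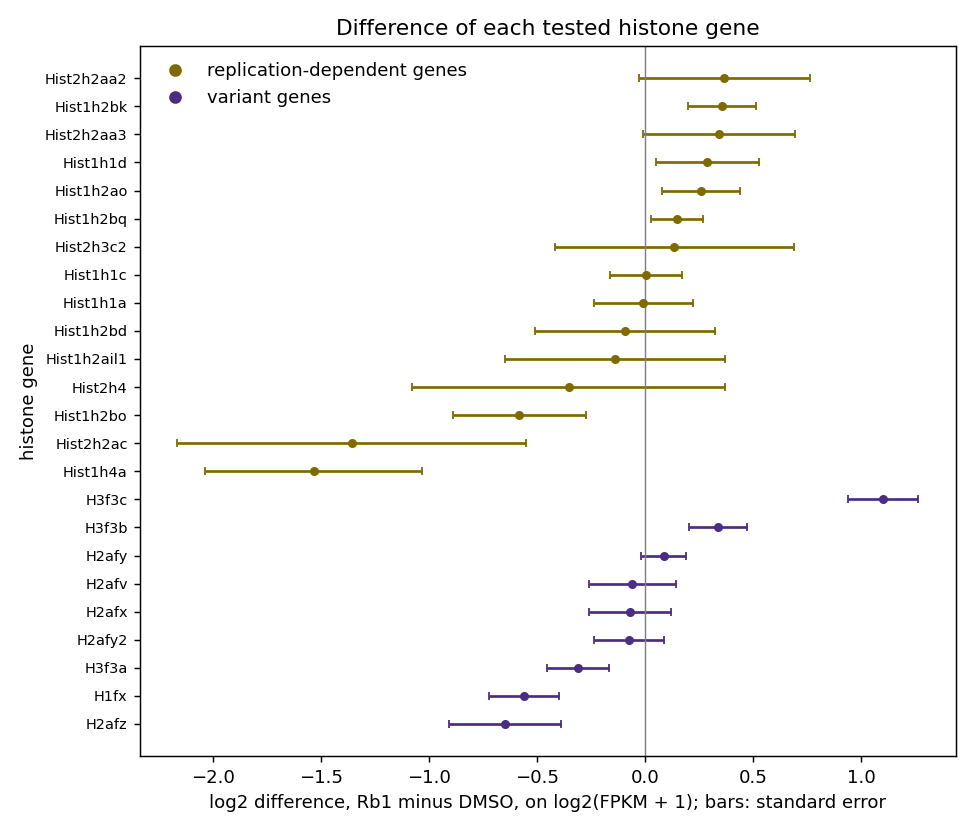
Log2 difference (Rb1 minus DMSO, on log2(FPKM + 1)) of the 24 tested histone genes with its standard error (bars), replication-dependent genes above and variant genes below, each in order of value. H3f3c stands highest at 1.10 and Hist1h4a lowest at -1.53, and none passed an adjusted p of 0.05.

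Other genes of the pathway were taken from lists of textbook members. Of 32 genes of histone mRNA transcription, processing and decay, 25 were tested and none had an adjusted p under 0.05, while 5 were lower and none higher at an unadjusted p under 0.05, beside 14.6% lower and 8.27% higher of all genes tested. These were Snrpb, a protein of the Sm ring of small nuclear RNPs (log2 difference -0.59), Sympk, the scaffold symplekin of the cleavage complex (-0.42), Upf1, a helicase of mRNA decay (-0.42), Hinfp, an activator of H4 genes (-0.70), and Nfyc, a subunit of the factor that binds CCAAT (-0.28). Slbp, which binds the stem-loop of histone mRNA, was at 23.0, 17.2 and 16.2 FPKM with Rb1 and at 14.9, 19.4 and 16.2 FPKM with DMSO. Its groups overlapped (log2 difference 0.14, limma adjusted p = 0.629). Npat, the coactivator of clustered histone genes, was at 3.3, 3.01 and 3.88 FPKM with Rb1 and at 2.28, 2.39 and 3.47 FPKM with DMSO, also with overlap. The median of the list was -0.04.

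Of 35 histone chaperones and import factors 32 were tested, with a median of 0.00 and no adjusted p under 0.05. At an unadjusted p under 0.05, 7 were higher and 4 lower, beside 8.27% and 14.6% of all genes tested. The 3 of smallest p among those higher were Ipo7, an importin that carries linker histones (log2 difference 0.47), the chaperone Set (0.39) and the H3-H4 chaperone Nasp (0.43). Those lower were Ep400, an ATPase that loads H2A.Z (-0.40), the H3-H4 importin Ipo4 (-0.41), the nucleoplasmin Npm3 (-0.37) and the importin Ipo9 (-0.53).

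Of 36 S phase genes 28 were tested, with a median log2 difference of 0.07 and no adjusted p under 0.05. At an unadjusted p under 0.05, 3 were higher and none lower, among them Ccne2, a cyclin of S phase entry (0.55), and Gins4, a subunit of the replicative helicase (0.66). Of all genes tested 8.27% were higher at that p. Pcna, the sliding clamp, was at 71.8, 43.5 and 47.2 FPKM with Rb1 and at 48.2, 49.5 and 43.4 FPKM with DMSO, with Rb1 replicate 1 high and the groups overlapping. Cenpa, the centromeric H3 variant that the name rule leaves out, was at 1.94, 1.71 and 1.59 FPKM with Rb1 and at 1.55, 1.70 and 1.11 FPKM with DMSO (log2 difference 0.17, limma adjusted p = 0.465). Rb1 replicate 1, the library that was high for Pcna, was also the highest for Hist1h2bq, Hist1h2ao, H3f3b and H3f3c, among other genes. The same library was the lowest for Hist1h1c (272 FPKM), H2afx (31.8 FPKM) and H2afy2 (7.11 FPKM), among others. A link between these values was not tested.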

How the data were processed

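RNA-seq libraries of rat BMSCs, 3 per group, were grouped by the treatment in the labels. The authors deposited FPKM values per gene, and a second set of columns with a signal made of fragments times 1 factor for each library. The deposited signal was divided by its most frequent value above 0 in each library, taken as the signal of 1 fragment. This gave whole fragments (within 0.05) for 98.6% to 99.4% of values above 0. That is not exact enough to use as raw counts, so the FPKM were tested and fragments serve as depth. The submitters' processing notes name CASAVA 1.8, HISAT2 and hg19, a human build that does not match the rat identifiers, and no source used here names the counting program. No batch is given in the labels.

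Rows of 1 symbol were summed, and the 10781 genes that reached 1 FPKM in 3 or more of the 6 libraries were tested. The test was limma 3.58.1 (R 4.3.3) on log2(FPKM + 1), with a pseudocount of 1 and the group as sole term. P-values were adjusted by Benjamini-Hochberg over all genes tested. A log2 difference on this scale understates the change of low genes. Sums and lists carry no test, and an exact permutation test of 3 against 3 libraries cannot go below 0.1. The script was tested on simulated data. Promoters were read from RefSeq windows of GRCr8, matched by gene number, and no genome was used.

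The members and lists were chosen with earlier results of these data known. Named genes are all variant genes tested, the 6 replication-dependent genes of highest mean FPKM and up to 5 per direction of smallest p, with up to 3 examples per direction of each pathway list. Other names given (Slbp, Npat, Pcna, Hinfp, Nfyc, Ipo9, the remaining low genes and those under the filter) were added for description after their values were seen. Alternatives covered the replicate block, pseudocounts of 0.1 and 0.5, the filter, scaling, variance model, length correction, row summing and 1 library at a time left out. Added after seeing the data were voom on the recovered fragments and a mean of at least 10 fragments. So were the sum without the 3 highest members and further without Hist1h4a and Hist2h2ac, and the H4 sum with Hist1h2ao. The H3.3 and H4 sums and the sum without the 3 highest members were also given as fragments per 1000000 after seeing the data. The values of 1 S phase gene are not reported here.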

Additional observations from a re-analysis of the deposited data

How the results depend on the processing

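No histone gene had an adjusted p under 0.05 in the reported fit or under any of 17 alternatives of the fit, except Hist1h4a without Rb1 replicate 1 (-2.20), where 2 Rb1 libraries of 2 fragments each remain. Direction held in every setting for 13 of the 24 genes tested, among them H3f3c, H3f3b, H3f3a, H2afz and H1fx. Depth limits the 12 replication-dependent genes under 20 fragments.

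The 2 genes of the whole table with an adjusted p under 0.05 became 0 with the replicate block, with the transcript length correction and with voom on recovered fragments, and 1 with median scaling and with a mean of at least 10 fragments, and 0 to 6 when 1 library was left out. Genes with an unadjusted p under 0.05 (2467) numbered 1463 to 2554 when 1 library was left out, the fewest without DMSO replicate 1 (and 1642 without DMSO replicate 2), and the 5 histone genes among them numbered 3 to 6, the fewest without DMSO replicate 3. Same-numbered libraries of the groups deviated together with correlations of -0.004, -0.042 and 0.16, so the numbers were not taken to pair the samples.

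The median of the variant genes was 0.01 with quantile normalization (0.007) and with median scaling (0.010), and -0.15 to 0.10 with 1 library left out. That of the replication-dependent genes was 0.16 with voom and -0.066 to 0.20 with 1 library left out. The ratio of sums for replication-dependent genes without the 3 highest members was 0.738 in FPKM and 0.813 from fragments scaled to library size. For variant genes it was 1.19 without H3f3a (1.189) and from fragments scaled to library size (1.188).

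Signs reversed for 11 genes. With a pseudocount of 0.1 the difference of Hist1h1a was 0.001 and that of Hist1h2bd 0.35. With quantile normalization H2afv was at 0.007, H2afy2 at 0.02, Hist1h1a at 0.07 and Hist1h1c at -0.016. With median scaling H2afv was at 0.019, H2afx at 0.01, H2afy2 at 0.004 and Hist1h1a at 0.07. With the length correction Hist1h1c was at -0.054, with rows kept apart Hist1h2ail1 at 0.14, and with voom Hist1h1a at 0.006 and Hist1h2bd at 0.26. With 1 library left out the ranges were -0.24 to 0.12 for H2afx, -0.17 to 0.10 for H2afy2, -0.21 to 0.13 for H2afv, -0.62 to 0.51 for Hist1h2ail1, -0.033 to 0.83 for Hist2h2aa2, -0.057 to 0.58 for Hist2h2aa3, -1.15 to 0.20 for Hist2h4, -0.08 to 0.15 for Hist1h1c, -0.59 to 0.19 for Hist1h2bd, -0.52 to 0.61 for Hist2h3c2 and -0.21 to 0.17 for Hist1h1a. The cause of these shifts was not tested. The planned quasi-likelihood count models were not run, because the recovered fragments were not whole for every value.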
